A study of Mus musculus with 4 samples.

Results

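Tmcc2, Ube2o, Xpo7, Mkrn1, Trim10, Fhdc1 and Gpcpd1 are 7 genes of late red cell maturation, described here across single mouse bone marrow cells. They are 7 of the 17507 gene names in the deposited tables and were chosen by name, with their levels in these cells already known, so their differences between sorts are given as a description and not as independent evidence. The cells came from C57BL/6 mice. They were CD51-negative bone marrow cells that the labels call TNCs, without spelling the term out, and were sorted as CD44+ or CD44-. CD44 is an adhesion receptor whose surface level falls as erythroblasts mature, and CD51 is the integrin alpha-V chain. The labels give no age, sex or number of animals, so the libraries may not be separate animals, and p-values then measure only the spread between these libraries.

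Dispase (1 mg/mL) and collagenase IV (2 mg/mL) released the cells from the marrow, and single cells were processed by SORT-seq, a plate method that gives each well a cell barcode and each transcript a molecular identifier. The 4 plates had 1536 wells in all. Replicate 1 of each sort was a whole plate, and replicates 2 and 3 were the upper rows (CD44+) and lower rows (CD44-) of plates that held both sorts, which makes 3 libraries of each sort. Wells with at least 1000 transcripts were kept, leaving 343 of 1536 wells, 238 CD44+ and 105 CD44-. The kept wells of the libraries summed to between 97041 and 1707318 transcripts. The 2 sorts differed in depth: 73 CD44+ wells and 5 CD44- wells held 10000 transcripts or more, and these 78 wells held 73.9% of all transcripts. By a marker of degraded or failed wells (transcripts of Kcnq1ot1 and its companion genes at 10% or more), 80 kept wells were of low quality. In CD44+ replicates 1, 2 and 3 these were 30 of 56, 7 of 95 and 17 of 87 wells. In CD44- replicates 1, 2 and 3 they were 19 of 44, 2 of 24 and 5 of 37. Libraries on separate plates of one sort share well barcodes, and 57, 12 and 9 barcodes were kept in both libraries of the CD44+ replicates 2 and 3, the CD44- replicates 2 and 3, and the replicates 1. Of these, 1, 1 and 0 barcodes had 5 or more Tmcc2 transcripts in either library. The 1 of the CD44- replicates had Tmcc2 in the other library too, and the 1 of the CD44+ replicates did not. The cause was not tested.

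In terminal erythroid maturation the erythroblast fills with haemoglobin, condenses and expels its nucleus, and as a reticulocyte removes its organelles and most of its proteins. Ube2o is a combined ubiquitin-conjugating and ligating enzyme that marks ribosomal and other proteins for the proteasome in reticulocytes. Mkrn1 and Trim10 are RING-finger proteins, Mkrn1 a ubiquitin ligase and Trim10 a protein needed for erythroid differentiation. Xpo7 is a nuclear export receptor that takes part in the condensation of the erythroblast nucleus. Fhdc1 is a formin, which acts on actin and microtubules, Tmcc2 is a membrane protein of the endoplasmic reticulum with coiled-coil domains, and Gpcpd1 cleaves glycerophosphocholine. Alas2, the first enzyme of haem synthesis in erythroid cells, and Slc4a1, the band 3 anion exchanger of the red cell membrane, served as reference genes.

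Each of the 7 genes lies on a different mouse chromosome (GRCm38, GENCODE annotation). Tmcc2 is at chr1:132356315-132391281 on the minus strand and has an antisense gene, Gm15849. Ube2o is at chr11:116537740-116581447, Fhdc1 at chr3:84442198-84480429 and Gpcpd1 at chr2:132529082-132587729, all on the minus strand, and Trim10 is at chr17:36869574-36877833 on the plus strand. Xpo7 at chr14:70654246-70766628 overlaps Npm2 and Dok2, and Mkrn1 at chr6:39397804-39420462 has an antisense gene, Gm10244; both are on the minus strand. Whether counting used strand is not given in the sources used here, so reads of the antisense partners of Tmcc2 and Mkrn1 cannot be told apart from theirs. RefSeq promoters (GRCm38.p6, 250 bases upstream of a start) were at hand for Tmcc2 (3 starts), Fhdc1 (2), Mkrn1 (2), Trim10 (1) and Alas2 (1). They were searched on both strands for AGATAA and TGATAA, the letters the erythroid factor GATA1 prefers, for CCNCNCCC, the letters of KLF1, and for CACGTG, an E-box. AGATAA stood upstream of 1 start each of Tmcc2, Fhdc1, Trim10 and Alas2, and is in 9.99% of the 32851 mouse promoters of this length. Neither AGATAA nor TGATAA is in the Mkrn1 windows, and TGATAA is in none of those listed (7.94% of all). The 3 members' windows with AGATAA are shown because these genes share it and are on different chromosomes. Capitals mark AGATAA, which on the opposite strand reads TTATCT, and matches of the KLF1 letters, which are in 45.9% of promoters, and a match is a description, not a site.
Tmcc2, chr1:132367949-132368198, minus strand: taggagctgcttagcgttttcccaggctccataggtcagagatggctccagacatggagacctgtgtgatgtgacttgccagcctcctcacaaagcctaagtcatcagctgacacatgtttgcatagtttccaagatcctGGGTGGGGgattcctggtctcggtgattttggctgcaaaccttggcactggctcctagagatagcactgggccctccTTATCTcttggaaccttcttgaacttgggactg
Fhdc1, chr3:84479492-84479741, minus strand: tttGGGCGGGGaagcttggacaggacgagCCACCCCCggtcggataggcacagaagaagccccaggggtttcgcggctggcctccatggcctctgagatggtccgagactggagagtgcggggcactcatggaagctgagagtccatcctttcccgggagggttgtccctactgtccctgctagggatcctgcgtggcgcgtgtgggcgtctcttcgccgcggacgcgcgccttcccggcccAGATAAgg
Trim10, chr17:36869324-36869573, plus strand: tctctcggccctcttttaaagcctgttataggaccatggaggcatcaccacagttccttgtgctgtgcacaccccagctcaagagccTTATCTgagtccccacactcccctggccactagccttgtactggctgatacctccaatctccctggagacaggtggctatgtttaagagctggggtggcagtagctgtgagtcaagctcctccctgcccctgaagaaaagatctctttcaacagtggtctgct
The Tmcc2 and Fhdc1 windows lie inside the genes as annotated.

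Summed over all kept wells, 1701 transcripts of the 7 genes were counted in 212 of 343 wells. Levels are in CPM, a gene's transcripts scaled to a common total of each library's kept wells, a scale on which wells with many transcripts weigh most. For the 7 genes together, the CD44+ libraries stood at 287, 407 and 407 CPM and the CD44- libraries at 1351, 869.5 and 1818 CPM for replicates 1, 2 and 3. No CD44+ library reached the lowest CD44- library. In transcripts per kept well the order did not hold, with 0.768, 4.79 and 8.0 in the CD44+ libraries and 2.98, 3.67 and 7.80 in the CD44- libraries.

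Tmcc2 differed most between the sorts. The CD44+ libraries held it at 0, 67.4 and 22.3 CPM and the CD44- libraries at 237, 356 and 664 CPM, so the groups did not overlap. The 0 of CD44+ replicate 1 was 0 transcripts in 56 wells, which allows up to 20.0 CPM and up to 5.36% of wells with a transcript at this depth, counting error only. The means were 29.9 ± 34.4 and 419 ± 220 CPM (SD, n = 3), and the log2 difference in edgeR's quasi-likelihood test was -3.73 (SE 0.77, adjusted p = 0.0694). With the plate pair as a replicate block it was -4.08 (SE 0.63, edgeR adjusted p = 0.00416), and edgeR also called it without CD44- replicate 1 (adjusted p = 0.0466) and when low-quality wells were dropped (adjusted p = 0.0297).

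The ubiquitin enzyme Ube2o had 13.4, 37.6 and 43.4 CPM in the CD44+ and 113, 49.3 and 107 CPM in the CD44- libraries, without overlap. It did not pass the filter on low counts in edgeR, and without that filter its log2 difference was -0.99 (SE 0.58, adjusted p = 0.50), in a fit in which the median of all genes was 0.40. The ligase Mkrn1 had 53.4, 114 and 159 CPM against 340.4, 118 and 214 CPM. Here the groups overlapped, and edgeR gave -1.20 (SE 0.50, adjusted p = 0.249) and, with the block, -1.03 (adjusted p = 0.212). The RING protein Trim10 had 6.68, 23.3 and 70.3 CPM against 0, 9.87 and 81.9 CPM. These values interleave, replicate 3 being the highest in both sorts, and its log2 difference without the filter was 0.53 (SE 0.67, edgeR adjusted p = 0.824).

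The nuclear exporter Xpo7 had 174, 71.6 and 54.0 CPM in CD44+ against 392, 168 and 397 CPM in CD44- libraries. CD44+ replicate 1 lay just above CD44- replicate 2, so the groups overlapped by that library, and the log2 difference was -1.80 (SE 0.65, edgeR adjusted p = 0.197; with the block -1.90, adjusted p = 0.0318). The formin Fhdc1 had 6.68, 16.1 and 27.5 CPM against 41.2, 59.2 and 113 CPM, without overlap and with few transcripts (66 and 28 in the 2 sorts); without the filter edgeR gave -1.54 (SE 0.64, adjusted p = 0.221). The phosphodiesterase Gpcpd1 had 33.4, 76.9 and 31.0 CPM against 227, 109 and 239.7 CPM, without overlap (-2.12, SE 0.51, edgeR adjusted p = 0.102; with the block -2.16, adjusted p = 0.0407). For reference, Alas2 had 40.1, 80.8 and 69.8 CPM against 599, 128 and 94.5 CPM, and Slc4a1 20.0, 152 and 206 CPM against 278, 207 and 208 CPM.

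**Figure D1:**
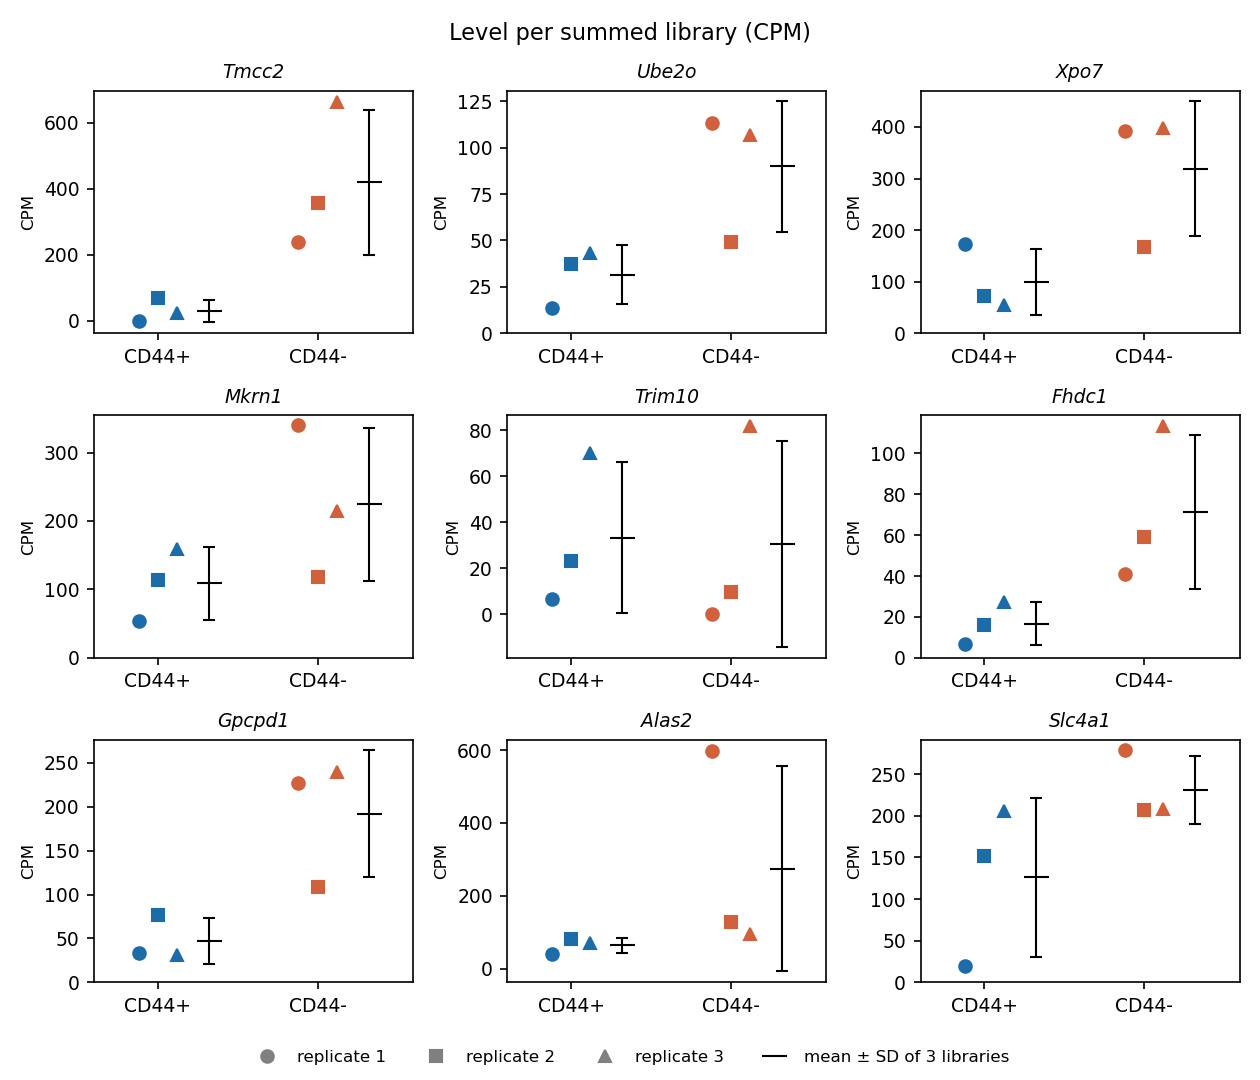
Level of each gene in each summed library, in CPM on a linear axis, by sort (symbols are the 3 replicates, bars the mean ± SD of 3 libraries). Tmcc2, Ube2o, Fhdc1 and Gpcpd1 show no overlap between the sorts, and Trim10 spans 0 to 81.9 CPM within the CD44- sort alone.

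Thus 4 of the 7 members (Tmcc2, Ube2o, Fhdc1 and Gpcpd1) had all CD44+ libraries below all CD44- libraries in CPM. Of these Ube2o and Fhdc1 did not pass the filter on low counts. Among the 4 members that did, 2 (Tmcc2 and Gpcpd1) had all CD44+ libraries lower, where 9.22% of the 2463 genes tested did. All 4 reached the filter's level in every CD44- library but not in every CD44+ library. Counts among these 4 are thus in part set by the filter. Without the well that held most of the gene, CD44- replicate 2 fell to 10.2 CPM for Ube2o, 0 for Fhdc1 and 40.9 for Gpcpd1. With the top well of every library so left out, these genes overlapped between the sorts. Tmcc2 did not, with CD44- replicate 2 at 51.1 CPM and the CD44+ libraries at 12.9 CPM or less. In edgeR's test 4 members passed the filter and 0 were called at an adjusted p under 0.05, where 1.02% of the 2463 genes were called (0.974% lower in CD44+); all 4 had an unadjusted p under 0.05, as did 19.1% of the 2463, and DESeq2 called Tmcc2 and Gpcpd1 lower (2.67% of 9369 genes lower). Tmcc2 alone was called lower without the filter (1.98% of genes lower), on the shared plates (2.04%) and without CD44- replicate 1 (3.51%), and Tmcc2 and Xpo7 without wells of low quality (2.47%). With the plate pair as a block, Tmcc2, Xpo7 and Gpcpd1 were called lower in CD44+, where 4.59% of genes were. Because the members were chosen with such values known, nothing is read from these counts. The test of whether the sort difference itself differed between the whole plates and the shared plates, which were read on separate flow cells, called 0 of 2463 genes (0%) in edgeR (87 at an unadjusted p under 0.05), the 4 tested members included.

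The sort difference in CPM moved with the size of the wells. Wells of 10000 transcripts or more supplied 11.7%, 75.6% and 88.5% of the transcripts of the CD44+ libraries and 0%, 52.9% and 22.6% of those of the CD44- libraries. Among wells of 1000 to under 3000 transcripts, 92 CD44+ and 72 CD44-, every member's libraries overlapped between the sorts. In these wells Tmcc2 stood at 0, 1146 and 687 CPM in CD44+ and at 343, 40.3 and 2824 CPM in CD44- (means 611 ± 577 and 1069 ± 1527, SD, n = 3; two-sided exact permutation p = 0.8, smallest possible 0.1). Xpo7 had 199.8, 571 and 1462 CPM against 489.7, 80.6 and 1423 CPM (exact permutation p = 0.7). All 7 members had p of 0.3 or more there, adjusted p = 1 over the 7, and edgeR on these wells called 0 of 426 genes (0%; 11 at an unadjusted p under 0.05). In wells of 3000 to under 10000 transcripts Tmcc2 had 0, 9.23 and 0 CPM against 56.0, 1399 and 46.0 CPM, without overlap (exact permutation p = 0.1, the smallest possible, adjusted p = 0.233 over the 7). Ube2o (9.99 ± 9.33 against 75.1 ± 85.9 CPM) and Mkrn1 (54.7 ± 15.4 against 174 ± 81.1 CPM, SD, n = 3) did not overlap there either, at the same exact p and adjusted p, and the other 4 members overlapped. These levels rest on few transcripts. Ube2o had 0, 4 and 2 in CD44+ and 1, 4 and 2 in CD44-, and Mkrn1 3, 8 and 11 against 8, 5 and 7. The share of all genes without overlap in this size class is not given here, so nothing is read from the number of members. Of the 32 Tmcc2 transcripts in CD44- replicate 2, 31 came from a single well. That well of 3533 transcripts also held 41 neutrophil and 13 B lineage marker transcripts. Whether it held more than 1 cell was not tested. The part that well size plays in the sort difference was not tested beyond these values.

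The members fell into different wells by size. Of Tmcc2's 278 transcripts, 73.3% lay in wells of 1000 to under 3000 transcripts, a class that held 8.60% of all transcripts, and 12.2% in wells of 10000 or more. Xpo7 was next, with 52.6% in the small and 25% in the large wells. Trim10 and Mkrn1 had the opposite pattern, with 83.9% and 78.6% in the large wells, close to the 73.9% of all transcripts there, and 11.2% and 12.8% in the small wells. Ube2o, Fhdc1 and Gpcpd1 lay between, with 35.8%, 35.1% and 35.4% in the small wells. Slc4a1 resembled Mkrn1 (81.3% in the large wells), and Alas2 resembled Fhdc1 (53.5% and 55.3%). These shares pool libraries of different depth, and they differed within libraries. Tmcc2 had 91.3%, 2.78% and 96.2% of its 23, 36 and 105 transcripts in the small wells of CD44- replicates 1, 2 and 3, and 85.3% and 42.1% of its 75 and 38 in those of CD44+ replicates 2 and 3. Of Trim10's transcripts 120 came from CD44+ replicate 3, with 90.8% in large wells, and 26 from CD44+ replicate 2, all in large wells, while the 13 of CD44- replicate 3 were all in small wells. Mkrn1 had 89.0% and 94.5% of its transcripts in the large wells of CD44+ replicates 2 and 3, where 75.6% and 88.5% of all transcripts lay, and 0%, 50% and 8.82% in those of the CD44- libraries.

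**Figure D2:**
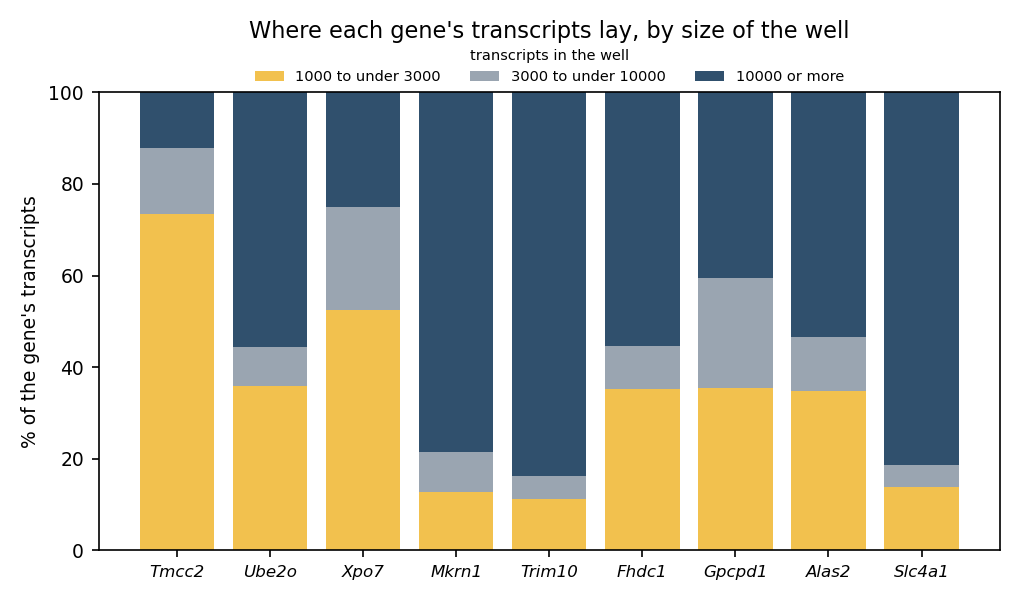
Percent of each gene's transcripts found in wells of 3 size classes, over 343 wells (164, 101 and 78 wells). Tmcc2 has 73.3% of its transcripts in the smallest class, and Trim10 has 83.9% in the largest.

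In each member the number of transcripts in a well rose with the well's total. Its level fell with the total among the wells where it was detected, but rose with it over all 343 wells. For Mkrn1, detected in 116 wells, Spearman's rho between count and total was 0.56 over 343 wells, and between level and total -0.59 over the wells with a transcript. For Tmcc2, detected in 48 wells, these were 0.17 and -0.94. The second is bounded by counting, since 1 transcript is a higher level in a smaller well, and both are descriptions of wells that share libraries. With wells at 0 included, rho between level and total was 0.44 for Mkrn1 and 0.15 for Tmcc2, a value that also depends on detection at each depth. Of the large wells 85.9% held Mkrn1, 53.8% Ube2o, 50% Xpo7, 46.2% Trim10, 38.5% Gpcpd1, 32.1% Tmcc2 and 26.9% Fhdc1. Of the small wells these shares were 12.8%, 7.93%, 21.3%, 3.66%, 11%, 9.15% and 7.32%.

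Much of the signal sat in a few small wells. The 5 wells with most Tmcc2 held 69.1% of its transcripts. In 6 wells the 7 genes made up between 3.36% and 6.51% of all transcripts, against a median of 0.0178% over the 343 wells. These 6 wells, 4 CD44- and 2 CD44+ from 4 of the libraries, had totals of only 1152 to 2139 transcripts. They held 66.9% of Tmcc2, 34.6% of Xpo7, 31.1% of Ube2o, 27.0% of Gpcpd1 and 26.6% of Fhdc1, but 8.07% of Trim10 and 7.42% of Mkrn1. The well with most was a CD44+ replicate 2 well of 2139 transcripts, with 61 of Tmcc2, 26 of Xpo7, 14 of Ube2o, 12 of Gpcpd1, 8 of Fhdc1, 3 of Mkrn1 and 0 of Trim10, beside 23 of Alas2 and 12 of Slc4a1. A CD44- replicate 3 well of 1401 transcripts held 26 of Xpo7, 22 of Gpcpd1, 19 of Tmcc2, 8 of Mkrn1 and 6 each of Ube2o and Trim10.

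All 6 wells carried erythroid transcripts. Each held both Alas2 and Slc4a1, between 6 and 10 of the other 13 late erythroid markers in the files, and between 30 and 531 globin transcripts. Mitochondrial transcripts were 0% to 1.46% of the total (median of all wells 3.08%). Early erythroid markers were at 4 to 32 transcripts, B lineage and macrophage markers at 0 or 1, and neutrophil markers at 1 to 6. None of the 6 wells was of low quality by the Kcnq1ot1 measure.

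**Figure D3:**
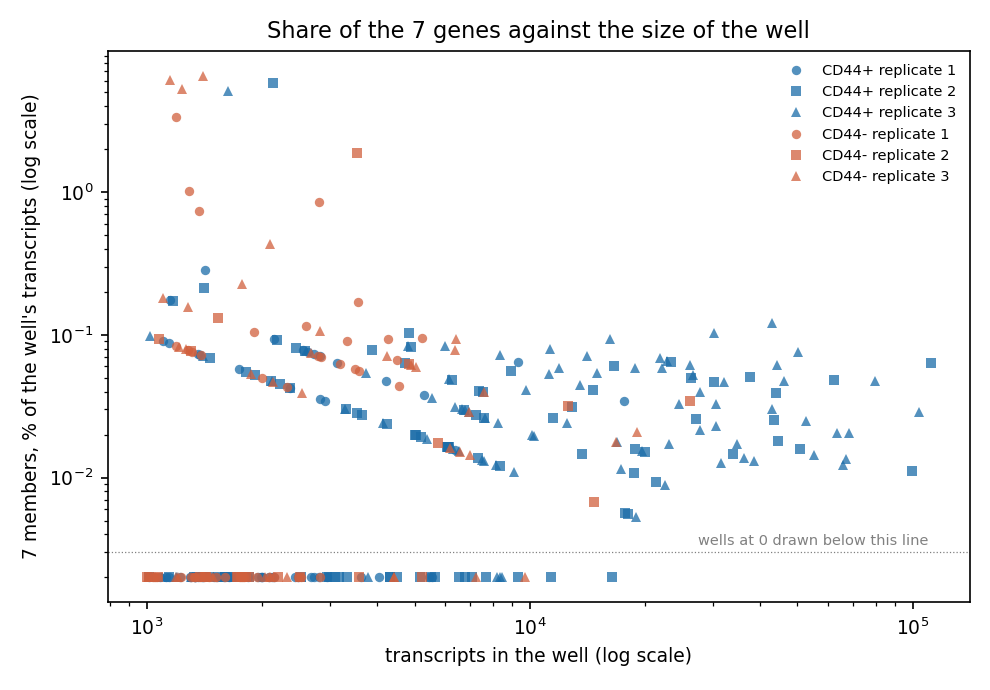
Percent of each well's transcripts that came from the 7 genes against the well's total, both axes logarithmic, with color for the sort and symbols for the replicates. The 6 wells above 3% all have totals of 1152 to 2139 transcripts, and wells of 10000 or more stay at or below 0.122%.

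**Figure D4:**
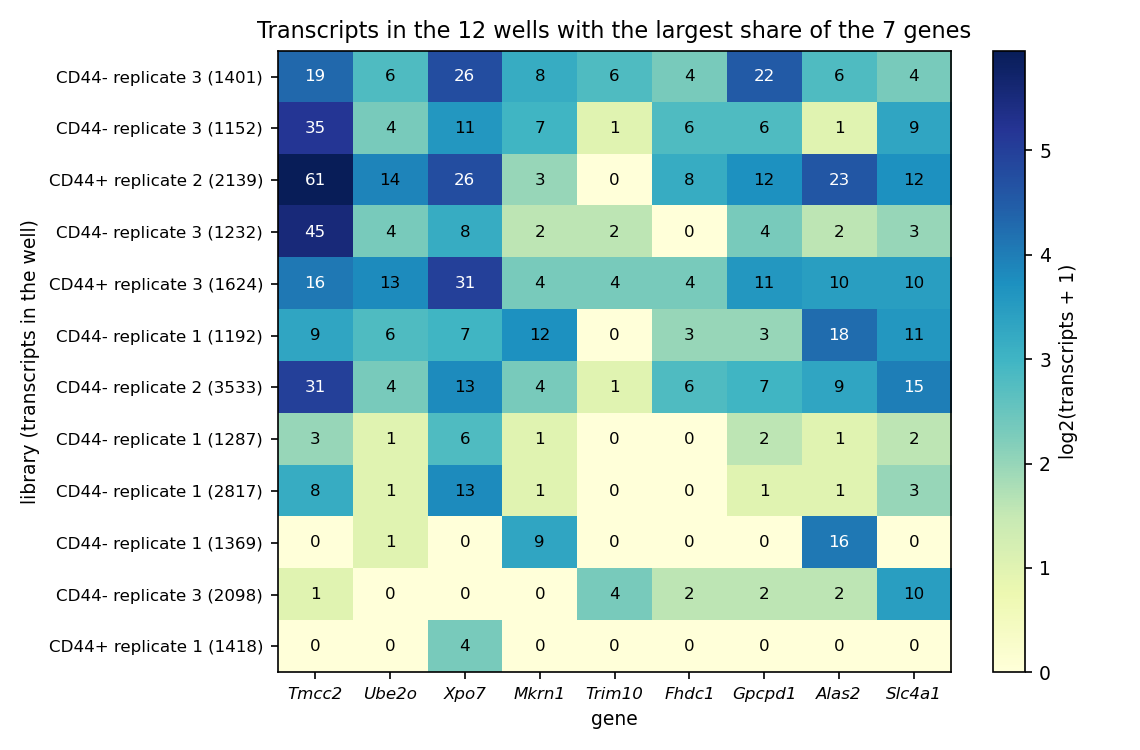
Transcripts of each member and of Alas2 and Slc4a1 in the 12 wells where the members' share was highest, with color on a log2(transcripts + 1) scale and the counts printed. Tmcc2 reaches 61 transcripts in one well of 2139, and the top 9 wells all hold Tmcc2, Ube2o, Xpo7, Mkrn1, Gpcpd1, Alas2 and Slc4a1.

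The members were found together with the reference genes. Of the 32 wells with both Alas2 and Slc4a1, 30 held a member (93.8%), and of the 255 wells with neither, 148 did (58.0%), at median totals of 11887 and 2954 transcripts. The 32 wells held 56.9% of all member transcripts, including 88.9% of Tmcc2 and 74.5% of Fhdc1 but 44.2% of Mkrn1. Wells with Alas2 alone held a member in 17 of 26 cases, and wells with Slc4a1 alone in 17 of 30. Xpo7 and Gpcpd1 were the members most often outside: 41.1% and 43.2% of their transcripts lay in wells with neither reference gene, against 6.83% of Tmcc2. For Xpo7 this rank depended on wells of low quality. Without them the share was 31.1% for Xpo7, 35.8% for Mkrn1 and 41.6% for Gpcpd1.

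Because deep wells detect more genes, each well was also thinned to 1000 transcripts, which left out 1 well just short of 1000 whole transcripts. Of 14 thinned wells with both reference genes 13 held a member (92.9%), and of 299 with neither 77 did (25.8%). Tmcc2 was in 8 of the 14 and 6 of the 299 wells, Ube2o in 8 and 3, Xpo7 in 8 and 34, Mkrn1 in 8 and 23, Gpcpd1 in 10 and 15, Trim10 in 7 and 4, and Fhdc1 in 6 and 3. All 7 were thus in a larger share of the wells with both, and Xpo7 had the highest share in the wells with neither, 11.4%, wells of low quality included.

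**Figure D5:**
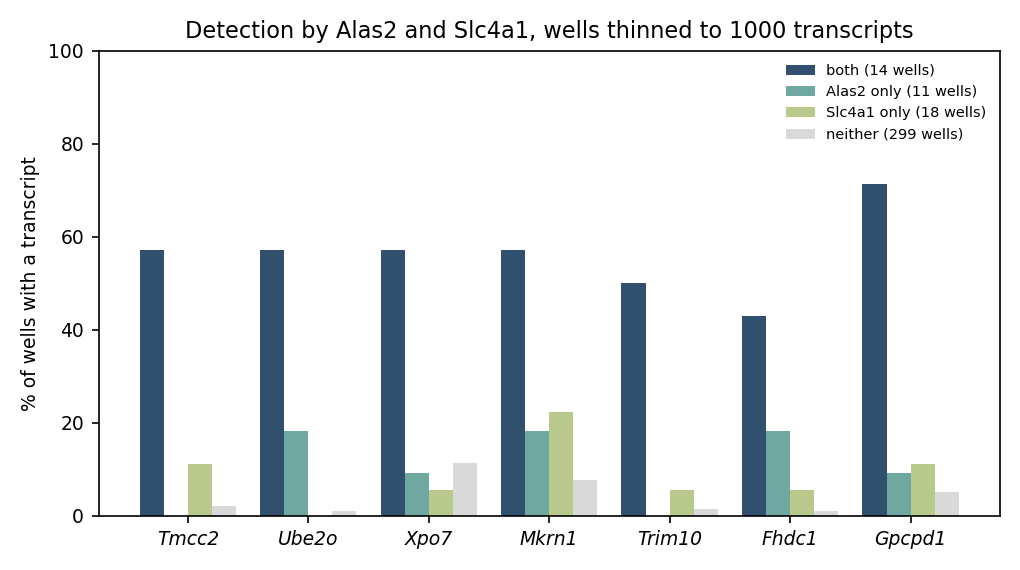
Percent of wells with a transcript of each member after thinning to 1000 transcripts, by whether the well also held Alas2, Slc4a1, both or neither (14, 11, 18 and 299 wells). Every member is found in 42.9% to 71.4% of the wells with both, and in at most 11.4% of the wells with neither.

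Wells grouped by which marker list had most transcripts, with at least 10 from that list, differed by erythroid stage; the late list includes Alas2 and Slc4a1, and none of the lists includes a member. Of the 32 wells led by late erythroid markers (18 CD44+, 14 CD44-), thinned to 1000 transcripts, Tmcc2 was in 10, Ube2o in 10, Fhdc1 in 9, Trim10 in 7, Xpo7 in 12, Mkrn1 in 13 and Gpcpd1 in 12. Of the 78 wells led by early erythroid markers such as Car1 and Klf1 (71 CD44+, 7 CD44-), Tmcc2 and Fhdc1 were in 0 after thinning, which allows up to 3.85% of wells with a transcript at that depth and says nothing of wells expressing them, Ube2o in 1, Xpo7 in 2, Trim10 and Gpcpd1 in 4 and Mkrn1 in 9. Before thinning these early wells, with a median of 12726 transcripts, held Mkrn1 in 49, Trim10 in 30, Ube2o in 29, Tmcc2 in 14 and Fhdc1 in 12 of 78, against 19, 16, 18, 16 and 18 of the 32 late wells with a median of 2831.

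Other lineages held some members. In the 44 wells led by B lineage markers (median 4458 transcripts) Gpcpd1 was in 21, Xpo7 in 16, Mkrn1 in 15 and Ube2o in 3. Tmcc2, Trim10 and Fhdc1 were in 0 of them, which allows up to 6.82% of wells with a transcript at these depths. In the 67 wells led by neutrophil markers (median 2598) Mkrn1 was in 22, Xpo7 in 19, Ube2o and Gpcpd1 in 11 each, Tmcc2 in 8, Fhdc1 in 3 and Trim10 in 1. In the 19 wells led by stromal markers (5 CD44+, 14 CD44-; median 6367) Tmcc2 and Xpo7 were in 5 each, Mkrn1, Fhdc1 and Gpcpd1 in 4 each, Ube2o in 2 and Trim10 in 0, which allows up to 15.8%. After thinning, Fhdc1 and Xpo7 were in 2 of these 19 wells and Tmcc2 in 1. Any member was then in 71.9% of the late erythroid and 21.8% of the early erythroid wells. The share was 22.7% of the neutrophil, 29.5% of the B lineage and 31.6% of the stromal wells.

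By sort, the mean thinned share of wells with a transcript was lower in CD44+ for every member, and for none could the exact test fall below p = 0.1 with 3 libraries a sort. Gpcpd1 was in 3.57%, 7.37% and 4.6% of the wells of the CD44+ libraries and 15.9%, 13.0% and 13.5% of the CD44- libraries. Tmcc2 was in 0%, 4.21% and 2.30% against 9.09%, 8.70% and 10.8%, and Ube2o in 0%, 2.11% and 3.45% against 9.09%, 4.35% and 8.11%. In these 3 genes the sorts did not overlap, at the smallest possible two-sided exact permutation p of 0.1 (adjusted p = 0.233 over the 7). The share of all genes without overlap after thinning is not given here, so nothing is read from the number of members. When the thinning was drawn with another seed, these 3 genes and Fhdc1 did not overlap, at exact permutation p = 0.1 each (adjusted p = 0.175). CD44- replicate 2 then stood at 4.35% for Tmcc2 and 8.70% for Gpcpd1. That library had only 24 kept wells, so a single well shifts its shares by several percentage points. These tests leave out the plate pair; taken as pairs, Tmcc2, Ube2o, Fhdc1 and Gpcpd1 were lower in CD44+ in 3 of 3 pairs, at the smallest exact paired p of 0.25, Xpo7 and Mkrn1 in 2 and Trim10 in 1. When wells of at least 2000 transcripts were thinned to 2000, Gpcpd1 overlapped, at 3.70%, 14.9% and 5.33% against 26.3%, 10% and 4.17% (exact permutation p = 0.6). Of the unpaired comparisons the others overlapped, Xpo7 at 12.2% ± 5.28 against 16.0% ± 2.94 (SD, n = 3; exact permutation p = 0.4) and Trim10 at 3.03% ± 4.37 against 3.60% ± 6.24 (exact permutation p = 1). Without thinning the shares of Ube2o, Xpo7, Mkrn1 and Trim10 were the higher ones in CD44+, by 5.74, 7.31, 6.12 and 11.8 percentage points, also with overlap.

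Over wells, the members varied together to different degrees. On log2(transcripts per 10000 + 1), Tmcc2 and Ube2o had the highest Pearson correlation of the member pairs, 0.76 over 343 wells, and Xpo7 and Trim10 the lowest, 0.31. These are descriptions of wells that share libraries and depth. All 7 members were found together in 6 wells, 3 of each sort, and each of these held Alas2 or Slc4a1; 131 wells held no member. Of 10589 other genes, those most like the sum of the 7 were Rsad2, an interferon-induced enzyme (0.59), Bpgm, the red cell bisphosphoglycerate mutase (0.55), the fatty acid receptor Cd36 (0.54), the autophagy protease Atg4a (0.54), the mitochondrial iron importer Slc25a37 (0.54), the transcription factor Sox6 (0.53), the membrane protein Epb4.2 (0.53), Alas2 (0.52), Slfn14-ps (0.51) and Fam220a (0.50). By member, Tmcc2 and Ube2o were most like each other or like Rsad2 (0.80 with Ube2o), whereas Trim10 was most like Atg4a (0.70), Epb4.2 (0.68) and Sox6 (0.64).

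Other genes of the same processes were not called by edgeR without the block; at an unadjusted p under 0.05 the 5 lists below had 1, 2, 2, 2 and 3 of 7, 9, 4, 11 and 6 genes, where 19.1% of all genes did, and DESeq2 called 0 in each but for Ran, higher, in the nuclear list. Of 16 further ubiquitin ligases and conjugating enzymes, 7 were tested and 0 called (median log2 difference -0.52, all genes -0.04), with Rnf10 at 63.0 ± 40.4 against 159.6 ± 14.9 CPM (adjusted p = 0.141) and Uba1, the ubiquitin-activating enzyme, at 230.1 ± 58.2 against 317 ± 260 CPM (adjusted p = 0.604). Of 12 ubiquitin, proteasome and ribosome clearance genes, 9 were tested and 0 called (median 0.71), with Psmd1, a proteasome subunit, at 244 ± 48.4 against 117 ± 74.2 CPM (adjusted p = 0.259). Of 13 autophagy and organelle clearance genes, 4 were tested and 0 called (median -0.92), among them Bnip3l, the mitophagy receptor of reticulocytes, at 235 ± 48.1 against 262 ± 31.7 CPM (adjusted p = 0.768). Of 16 genes of nuclear condensation, export and enucleation, 11 were tested and 0 called (median -0.16), and with the block 1, the export GTPase Ran, was higher in CD44+ (log2 1.29; 786 ± 142 against 304 ± 64.6 CPM). Of 10 measured late erythroid regulators, 6 were tested and 0 called (median 0.55), and with the block 1, Klf1, was higher (log2 1.69, 226 ± 98.2 against 66.0 ± 36.1 CPM). Klf1 and Gata1 are also in the early erythroid marker list, and this Klf1 call is among that list's 7 below. Of all genes, the fit with the block called 43 of 2463 higher and DESeq2 35 of 9369.

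Marker lists moved beside the members. The early erythroid list ranged from 3956 to 9498 summed CPM in the CD44+ and from 1470 to 2427 CPM in the CD44- libraries. EdgeR called 7 of its 10 tested genes higher with the block, where 43 of all 2463 genes were, and 0 without. DESeq2 called 5 of 12 (Blvrb, Car1, Car2, Ces2g and Rhd), in a fit that called 35 of 9369 genes higher and 250 lower. The late erythroid list ranged from 2314 to 4703 CPM in CD44+ and from 2639 to 36799 CPM in CD44-, the highest being replicate 1, with 0 of 10 tested genes called by edgeR either way (5 at an unadjusted p under 0.05) and 1 of 15, Beta-s, by DESeq2. Of 9 tested stromal markers edgeR called 6 lower in CD44+ (8 with the block), the list ranging from 140.3 to 1186 CPM against 5090 to 27704 CPM, and the part of the other cells in a member's CPM was not tested.

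The minimum of 1000 transcripts bears on the members, since their richest wells lay near it. The 75 wells of 1000 to under 1500 transcripts held 320 member transcripts, 302 of them in CD44- wells, and the 149 wells of 500 to under 1000 held 96, of which 82 were in CD44- wells.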

How the data were processed

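Transcripts were measured in single sorted bone marrow cells on 4 plates. The deposited values are expected counts, the authors' estimate of transcripts from molecular identifiers for each gene in each well; BWA 0.7.15 and mm10 are named in the submitters' processing notes. Values followed the curve of a saturation correction for 4096 identifiers (100.0% of values above 0 whole within 0.011 once undone; it added 2.32%), inferred from the values, where plain counts had been assumed in the design. Deposited values were summed per library over wells with at least 1000 transcripts (spike-ins excluded), rounded and tested in edgeR 4.0.16 (R 4.3.3; quasi-likelihood, TMM, low-count filter, Benjamini-Hochberg), with DESeq2 1.42.0 as an alternative. Well shares were compared by exact two-sided permutation tests over 3 libraries a sort (scipy 1.17.1). Same-numbered libraries came from one flow cell or plate, and their deviations correlated at 0.42, 0.29 and 0.34 (other pairs -0.35 to 0.07). The main edgeR fit and the unpaired permutation tests left this plate pair out. The pair entered only as a replicate block in alternative fits and in the exact paired test of shares. Sequences are RefSeq's. Binomial limits (3 counts for a 0) cover counting error only.

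The members and gene lists were chosen with earlier results of these data known. All 7 members and both reference genes are named, with the 10 genes most correlated with the members' sum, up to 3 for a member and the most abundant of each pathway list. Fits on simulated counts with known changes were checked. No doublet caller was run. The 1193 wells below the minimum were left out; other plates' wells share barcodes. Alternatives were other scalings and filters, leaving out each library, other well minima, wells of low quality, and thinning; fits on wells of 1000 to under 3000 transcripts, 2 unfiltered fits and the paired test of shares were added after seeing the data. Grouping wells by their leading marker list was also chosen after seeing the data. One gene of a pathway list is not reported here by name.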

Additional observations from a re-analysis of the deposited data

Results flagged for a closer look

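Member transcripts were also counted in the 1193 wells below 1000 transcripts, which no comparison used. There were 24, 16 and 7 in the CD44+ libraries (replicates 1, 2 and 3) and 100, 17 and 46 in the CD44- libraries, each above the 3 counts that a count of 0 allows. As levels within those wells they stood at 335, 653 and 522 CPM in CD44+ and 1640, 395 and 1288 CPM in CD44-. CD44- replicate 2 lay among the CD44+ values, so the sorts overlapped there. Below 500 transcripts 114 member transcripts were spread over 66 of 1044 wells, among them 25 of Xpo7, 24 of Mkrn1 and 18 of Tmcc2.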

How the results depend on the processing

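By edgeR 0 members were called between the sorts, as also without scaling beyond library size, with TMMwsp, with other well minima (2 members tested at 2000), without the largest wells, without the well richest in members of each library (2 members tested), after thinning (2 tested) and in wells of 1000 to under 3000 transcripts; the cause of the changes below was not tested. The count was 2 with DESeq2, 1 without the filter, 3 with the plate pair as a replicate block (3 also without the filter), 1 on the shared plates, 2 without wells of low quality, and 1 without the filter and the richest well of each library, each time lower in CD44+. Of all genes, 345 of 16924 were lower with the block and no filter. Without the filter and the richest wells 303 of 16915 were. Leaving out 1 library at a time gave 0 to 1, the 1 being Tmcc2 without CD44- replicate 1; the block changed no other call than those given. Tmcc2 stayed below 0 in all 20 alternatives (-4.68 to -0.42), Gpcpd1 in 19 (-2.54 to -0.39) and Mkrn1 in 20 (-1.85 to -0.15). In wells of 1000 to under 3000 transcripts the log2 difference turned to 0.60 for Ube2o (0.47 without the filter), 0.27 for Xpo7 (0.18) and -1.33 for Trim10 (without the filter). With a library left out Trim10 ranged from -0.43 to 0.46, Xpo7 from -2.53 to -1.25 (without CD44+ replicates 1 and 3) and Mkrn1 from -1.49 to -0.57 (without CD44- replicates 2 and 1).

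The thinned share's difference between sorts turned for Ube2o, Xpo7, Mkrn1 and Trim10 without thinning (5.74, 7.31, 6.12 and 11.8 percentage points) and for Ube2o and Trim10 when wells of at least 2000 were thinned to 2000 (0.46 and 0.52). With a library left out it ranged from -6.23 to 0.23 for Mkrn1, from -6.53 to -1.28 for Xpo7 (without CD44+ replicates 1 and 2) and from -3.08 to 3.03 for Trim10. The share of wells with both reference genes that held a member was 93.8%, and 100% in wells of at least 2000. With neither it was 58.0%, then 45.1% in wells of at least 500, 74.8% in wells of at least 2000 and 29% when detection needed 2 transcripts. Depth limits Trim10 and Fhdc1 in CD44- (14 and 28 transcripts).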
